A study of Mus musculus with 10 samples.

Results

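Expression in the mouse cerebellum was measured for 9 genes that make, store or break down the monoamine transmitters or supply and regulate their cofactor, namely *Th*, *Tph2*, *Dbh*, *Ddc*, *Slc18a2*, *Maoa*, *Maob*, *Gch1* and *Gchfr*. They were taken by gene symbol from the GENCODE M21 annotation, which gave 1 Ensembl gene for each of the 9 among the 53447 genes listed per library. The libraries came from whole cerebellum of BALB/c mice at P21, 5 of them WT animals, labelled Control, and 5 homozygous *Dscam* del17/del17 animals, labelled DscamKO and called mutant here. The del17 allele is a spontaneous loss-of-function deletion that is carried in every cell, so the comparison is not limited to one cell type, and the laboratory kept the allele by breeding with BALB/cCrSlc mice to obtain more homozygous births. The values are TPM, a transcript abundance scaled per library, which are divided by transcript length and can therefore be compared between genes. The listed TPM did not add up to the same sum in each library, with 684771 to 838532 in the WT and 775148 to 805869 in the mutant.

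Noradrenaline and dopamine are made from tyrosine, and serotonin from tryptophan. TH and TPH2 are the rate-limiting hydroxylases of the catecholamine and neuronal serotonin branches, the product of *Ddc* decarboxylates the intermediates of both, and DBH turns dopamine into noradrenaline inside vesicles that the product of *Slc18a2*, the vesicular monoamine transporter, has filled. GCH1 starts the synthesis of tetrahydrobiopterin, the cofactor of both hydroxylases, GCHFR is its feedback regulator, and MAOA and MAOB of the mitochondrial outer membrane deaminate the transmitters. The cerebellum receives noradrenergic fibres from the locus coeruleus and serotonergic fibres from the brainstem, whose cell bodies lie outside it, while *Th* is also known in a subset of mouse Purkinje cells.

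The sequences upstream of the start sites are shown for 4 genes, the catecholamine and serotonin hydroxylases, the cofactor enzyme and an oxidase, because they differ in base composition and in short motifs. They are from RefSeq on GRCm38.p6, in which 8 of the 9 genes were matched and *Maob* was not. Each is written 5′ to 3′ on the strand of the gene, covers the bases before the start, and carries in capitals every match on either strand to the cAMP response element TGACGTCA, the TATA motif TATAAA or the GC box GGGCGG. The *Th* stretch is chr7:142900015-142900245 (minus strand) and omits the bases that GENCODE counts as exon, the *Tph2* stretch is chr10:115185023-115185272 (minus strand), the *Gch1* stretch is chr14:47189414-47189663 (minus strand) and the *Maoa* stretch is chrX:16619448-16619697 (plus strand).
Th: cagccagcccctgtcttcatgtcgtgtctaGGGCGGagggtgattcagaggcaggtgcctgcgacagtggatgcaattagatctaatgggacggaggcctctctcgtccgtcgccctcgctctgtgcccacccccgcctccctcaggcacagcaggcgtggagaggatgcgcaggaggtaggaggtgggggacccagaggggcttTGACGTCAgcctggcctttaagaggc
Tph2: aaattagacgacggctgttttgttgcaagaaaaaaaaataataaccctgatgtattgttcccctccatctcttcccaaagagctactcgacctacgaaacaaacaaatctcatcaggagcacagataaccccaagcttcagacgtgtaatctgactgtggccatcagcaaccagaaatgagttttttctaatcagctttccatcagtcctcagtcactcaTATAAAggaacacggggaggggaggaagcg
Gch1: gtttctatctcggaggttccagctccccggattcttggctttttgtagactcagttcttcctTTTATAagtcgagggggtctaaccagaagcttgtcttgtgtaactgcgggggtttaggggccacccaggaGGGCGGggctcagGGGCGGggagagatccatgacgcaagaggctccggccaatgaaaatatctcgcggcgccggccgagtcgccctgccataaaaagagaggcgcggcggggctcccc
Maoa: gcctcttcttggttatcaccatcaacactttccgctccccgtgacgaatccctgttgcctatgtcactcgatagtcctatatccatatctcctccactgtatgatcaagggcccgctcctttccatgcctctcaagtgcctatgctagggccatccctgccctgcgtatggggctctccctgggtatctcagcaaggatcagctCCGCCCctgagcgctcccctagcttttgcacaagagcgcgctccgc

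Over the whole 250 bases before the start, *Th* had 64.4% G and C and 13 CpG, with a cAMP response element at -45 and a GC box at -220. *Tph2* had 43.6% G and C and a TATA motif at -30. *Gch1* had 59.2% G and C, 2 GC boxes of which the outer is at -118, and a TATA motif on the opposite strand at -188, and *Maoa* had 56.8% G and C with a GC box on the opposite strand at -46. Of 32851 RefSeq promoters of this length, 1.55% held the cAMP response element, 12.4% the TATA motif and 32.7% the GC box, and their median was 52.4% G and C with 6 CpG. *Gchfr* was the most CpG-rich of the 8 matched genes, at 27 CpG and 66.4% G and C, with 2 GC boxes. *Dbh* held none of the 3 motifs, and its window lay within an exon of the GENCODE gene, so it is not printed. *Ddc* has 2 RefSeq starts, with 40.8% and 56.0% G and C before them. GENCODE also lists protein-coding *Th* transcripts that start upstream of the printed *Th* stretch, at positions 142931128 and 142931120. TPM per gene does not separate transcripts from different starts.

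The tissue showed the markers of cerebellum in all libraries, among them *Pcp2* of Purkinje cells (1380 TPM or more) and *Gabra6* of granule cells (238 TPM or more), and also *Ttr* of choroid plexus (1775 TPM or more). *Dscam* itself measured 6.29 to 9.05 TPM in the WT and 3.05 to 5.42 TPM in the mutant libraries, without overlap (exact permutation test, p = 0.0079; limma, adjusted p = 0.779). WT replicate 5 listed the fewest genes at 0.5 TPM or more and had the lowest mitochondrial mRNA, 15206 TPM against 23124 to 44973 TPM elsewhere, and *Xist* was at 88.3 TPM in WT replicate 1 and 65.6 TPM in mutant replicate 5 but at most 0.086 TPM in the other 8 libraries. Of 17168 genes tested with limma, 0 passed an adjusted p of 0.05 (0%). At an unadjusted p under 0.05, 394 were higher in the mutant (2.29%) and 559 lower (3.26%), and the libraries of the genotypes did not overlap for 72 genes higher (0.419%) and 137 lower (0.798%) in the mutant.

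Among the 9 genes, *Dbh* and *Th* had the smallest p-values between genotypes, and neither passed the test across all genes. *Dbh* entered the limma fit only through the mutant group, so its place in this order is a description. *Ddc*, which acts between *Th* and *Dbh* in noradrenaline synthesis, had a lower mean in the mutant. *Dbh* averaged 5.69 times the WT level in the mutant and *Th* 1.68 times, while the genotypes overlapped in every gene other than *Dbh*. *Gchfr*, *Maoa*, *Maob* and *Th* averaged above 2 TPM over the 10 libraries and the other 5 genes below it. The tissue was sequenced in bulk, so fewer cells of a type and less RNA per cell cannot be told apart.

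**Figure D1:**
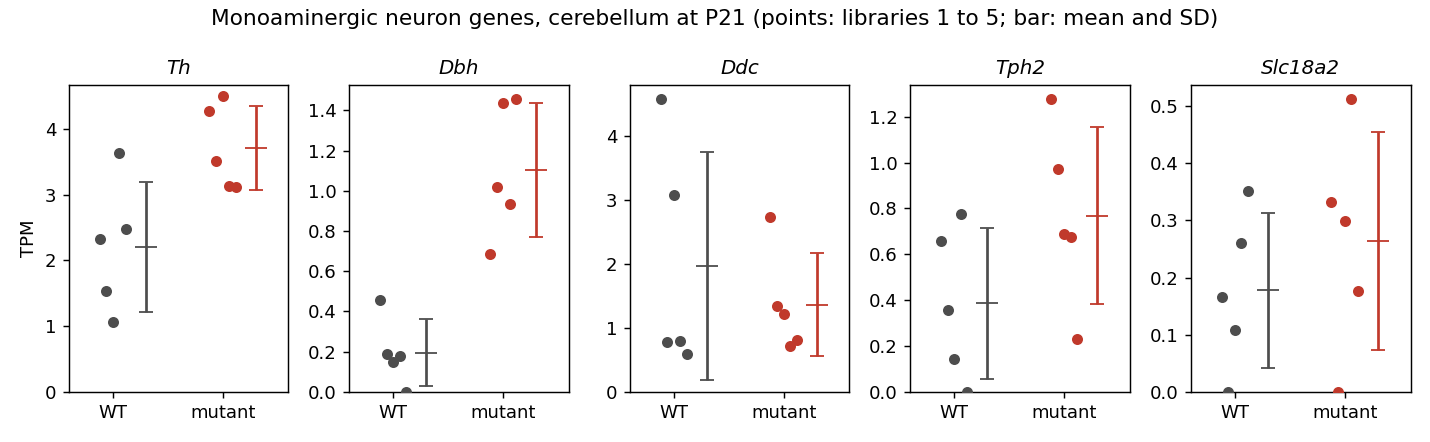
TPM of *Th*, *Dbh*, *Ddc*, *Tph2* and *Slc18a2* (y axis, from 0, a separate scale for each gene) in the WT and mutant libraries. Points are libraries in the order 1 to 5 from left to right, and the bar beside them is the mean with the SD (n = 5). The 5 mutant points of *Dbh* lie above all WT points, and in *Th* 1 WT point, at 3.63 TPM, reaches into the mutant range.

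*Th* (ENSMUSG00000000214, chr7:142892752-142931128, minus strand, GRCm38) measured 2.33, 1.53, 1.07, 3.63 and 2.47 TPM in WT replicates 1 to 5 and 4.28, 3.52, 4.50, 3.13 and 3.12 TPM in mutant replicates 1 to 5. Every WT library except WT replicate 4 was below every mutant library, and WT replicate 4 exceeded 3 of the 5 mutant ones. The means were 2.21 ± 0.985 TPM in the WT and 3.71 ± 0.645 TPM in the mutant (SD, n = 5 each). The log2 fold change, mutant over WT after adding 0.1 TPM, was 0.82 (SE 0.35, 95% interval 0.06 to 1.58) with an adjusted p of 0.779 in limma and an unadjusted p of 0.0373. The exact two-sided permutation test of the difference of mean TPM gave p = 0.0317, not adjusted for the 9 genes tested in this way. Leaving out WT replicate 1, 2, 3 or 5, or mutant replicate 1 or 3, gave an exact permutation p of 0.0635. It was 0.0159 without WT replicate 4, 0.0476 without mutant replicate 2, 4 or 5, and 0.143 without WT replicates 3 and 5 together. In limma, the unadjusted p of *Th* was under 0.05 in 12 of 23 alternatives and reached 0.0948.

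*Dbh* (ENSMUSG00000000889, chr2:27165233-27183200, plus strand) measured 0.458, 0.186, 0.148, 0.179 and 0 TPM in WT replicates 1 to 5 and 0.685, 1.02, 1.44, 0.934 and 1.45 TPM in mutant replicates 1 to 5. Every mutant library was above every WT library. The means were 0.194 ± 0.166 TPM and 1.11 ± 0.333 TPM (SD, n = 5 each). The log2 fold change was 2.19 (SE 0.56, 95% interval 0.96 to 3.42) with an adjusted p of 0.779 in limma and an unadjusted p of 0.00231. The exact permutation test gave p = 0.0079, the smallest that 5 against 5 libraries allow, and 0.419% of all genes tested had non-overlapping groups in this direction. *Dbh* reached 0.5 TPM in all 5 mutant and in 0 WT libraries, so it entered the fit only through the mutant group. The size of the log2 fold change depended on the added value, 0.81 with 1 TPM and 3.13 with 0.01 TPM.

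The noradrenergic neuron markers *Phox2a* and *Slc6a2* were at or near 0 in both genotypes. *Phox2a*, the transcription factor of noradrenergic identity, was listed at 0 in all 10 libraries. *Slc6a2*, the noradrenaline transporter, reached at most 0.27 TPM and was listed at 0 in 4 libraries, 3 WT and 1 mutant. 0 of the 5 genes of this marker list, which includes *Gal* and *Hcrtr1*, passed the filter, and their summed level was 0.686 to 3.14 TPM in the WT and 0.257 to 2.34 TPM in the mutant. Of 8 markers of brainstem and midbrain neurons, 2 were tested. *Slc17a6*, the vesicular glutamate transporter of many brainstem neurons and also of cerebellar nuclei, measured 1.79, 8.43, 1.85, 1.51 and 3.66 TPM in the WT and 14.1, 9.67, 7.95, 9.21 and 3.41 TPM in the mutant libraries (log2 fold change 1.52, limma, unadjusted p = 0.0107, adjusted p = 0.779). *Calca*, which encodes calcitonin gene-related peptide, had a log2 fold change of 1.18 (limma, adjusted p = 0.785). Its highest value, 5.84 TPM, was that of WT replicate 5. The summed brainstem list was 2.68 to 9.50 TPM in the WT and 4.78 to 14.8 TPM in the mutant. *Slc17a6* and *Calca* made up most of that sum, while *Chat*, *Slc5a7*, *Slc18a3*, *Isl1*, *Pou4f1* and *Pou4f2* each reached at most 0.55 TPM. The 11 caudal hindbrain *Hox* genes all stayed under 0.5 TPM. Some markers of other cells also differed between the genotypes without overlap, with none past the adjusted threshold. Over all genes tested, 56% had a log2 fold change above 0. Without overlap, 0.419% of all genes were higher and 0.798% lower in the mutant. All 6 oligodendrocyte markers had a log2 fold change above 0, and the myelin genes *Mobp* (0.50) and *Mog* (0.56) did not overlap between genotypes. Of 7 granule cell markers, 6 were below 0, with *Fat2* (log2 fold change -0.36) and *Neurod1* (-0.25) not overlapping. *Slc6a13* of the meninges (-1.09) and the pericyte genes *Vtn* (-0.42) and *Kcnj8* (-0.55) were likewise lower without overlap. Their lists were mixed, with 5 meningeal markers below and 2 above 0, and 3 endothelial and pericyte markers below and 4 above. Of the Purkinje cell markers, 6 were above and 1 below 0 (median 0.11). Astrocyte and Bergmann glia markers were 4 above and 4 below (median 0.01). Of the astrocyte and Bergmann glia markers, *Hopx* had the smallest p and was lower with overlap (log2 fold change -0.48, limma, unadjusted p = 0.00214, adjusted p = 0.779). The part of all these levels in the values of *Dbh* and *Th* was not tested.

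**Figure D2:**
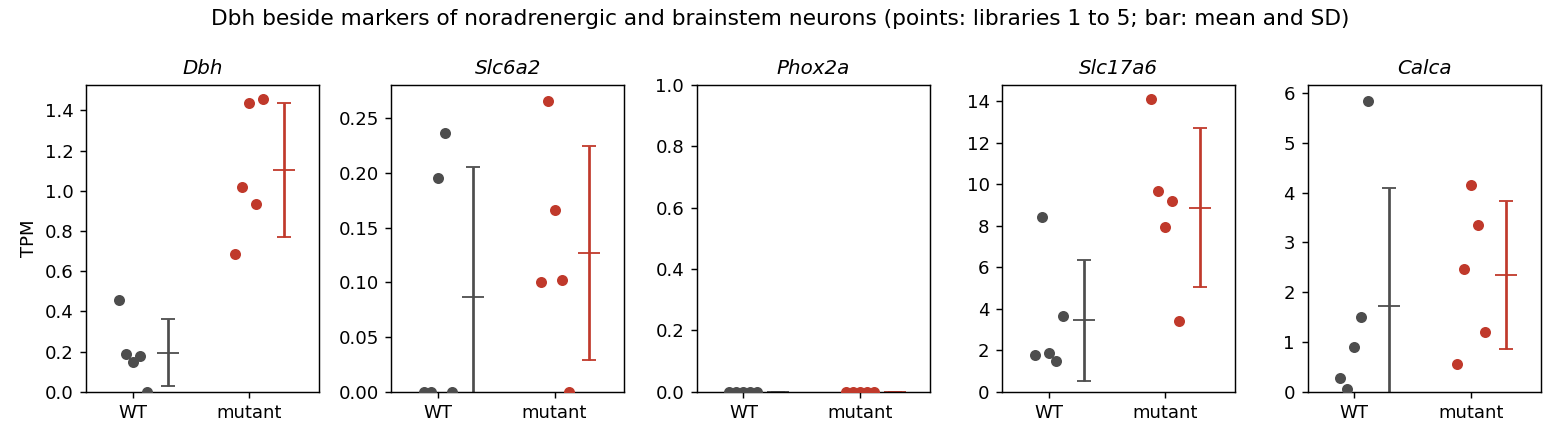
TPM of *Dbh*, of the noradrenergic markers *Slc6a2* and *Phox2a*, and of the brainstem markers *Slc17a6* and *Calca* (y axis, from 0, a separate scale for each gene) in the WT and mutant libraries. Points are libraries 1 to 5 and bars are the mean with the SD (n = 5, drawn only above 0). *Phox2a* lies at 0 throughout, *Slc6a2* does not exceed 0.27 TPM, and *Slc17a6* has 4 mutant points at 7.95 TPM or more against 1 WT point.

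*Ddc* (ENSMUSG00000020182, chr11:11814101-11898144, minus strand), whose product serves both branches, varied more within a genotype than between them. It measured 4.58, 0.779, 3.08, 0.795 and 0.595 TPM in WT replicates 1 to 5 and 2.73, 1.35, 1.22, 0.715 and 0.812 TPM in mutant replicates 1 to 5. WT replicates 1 and 3 and mutant replicate 1 were the high libraries. The means were 1.97 ± 1.79 and 1.37 ± 0.808 TPM (SD, n = 5 each), with a log2 fold change of -0.20 (95% interval -1.55 to 1.14, limma, adjusted p = 0.941) and an exact permutation p of 0.619. Without WT replicate 1 the log2 fold change was 0.20.

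*Tph2* (ENSMUSG00000006764, chr10:115078641-115185022, minus strand) measured 0.658, 0.359, 0.143, 0.776 and 0 TPM in WT replicates 1 to 5 and 1.28, 0.973, 0.689, 0.675 and 0.233 TPM in mutant replicates 1 to 5. Mutant replicates 1 and 2 exceeded all WT libraries and the other 3 lay within the WT range. The means were 0.387 ± 0.330 and 0.769 ± 0.388 TPM (SD, n = 5 each), with a log2 fold change of 1.07 (95% interval -0.47 to 2.61, limma, adjusted p = 0.779) and an exact permutation p of 0.127. Without WT replicate 5, in which it was listed at 0, the log2 fold change was 0.59, and without WT replicates 3 and 5 it was 0.22. Of the serotonergic neuron markers, *Fev* was listed at 0 in all libraries, the serotonin transporter *Slc6a4* was above 0 only in WT replicate 2, at 0.19 TPM, and *Lmx1b* and *Gata3* reached at most 0.62 and 0.068 TPM. *Gata2*, a transcription factor that is also used by other cells, was the only one of the 5 that was tested, at 2.07 to 3.71 TPM in the WT and 1.27 to 3.52 TPM in the mutant (log2 fold change -0.21, limma, adjusted p = 0.885), and it made up most of the summed list of 2.31 to 4.22 TPM in the WT and 1.38 to 3.66 TPM in the mutant. Of the markers of midbrain dopaminergic neurons, *Pitx3*, *Foxa1* and *Foxa2* were listed at 0 in all libraries, and the dopamine transporter *Slc6a3* reached at most 0.36 TPM.

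*Slc18a2* (ENSMUSG00000025094, chr19:59260896-59296012, plus strand) measured 0.167, 0, 0.108, 0.261 and 0.352 TPM in WT replicates 1 to 5 and 0.333, 0, 0.299, 0.512 and 0.177 TPM in mutant replicates 1 to 5. Averaging 0.178 ± 0.136 TPM in the WT and 0.264 ± 0.190 TPM in the mutant (SD, n = 5 each), it was the lowest of the 9 genes, was listed at 0 in 1 library of each genotype, and was the only one that did not pass the filter on low values. The exact permutation test gave p = 0.421, and a fit without the filter gave a log2 fold change of 0.34 (95% interval -0.98 to 1.66, limma, adjusted p = 0.883). Its exons share 111 bases with the antisense gene *Gm29261*, which averaged 0.0041 TPM. No other member shared exon bases with a neighbouring gene.

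**Figure D3:**
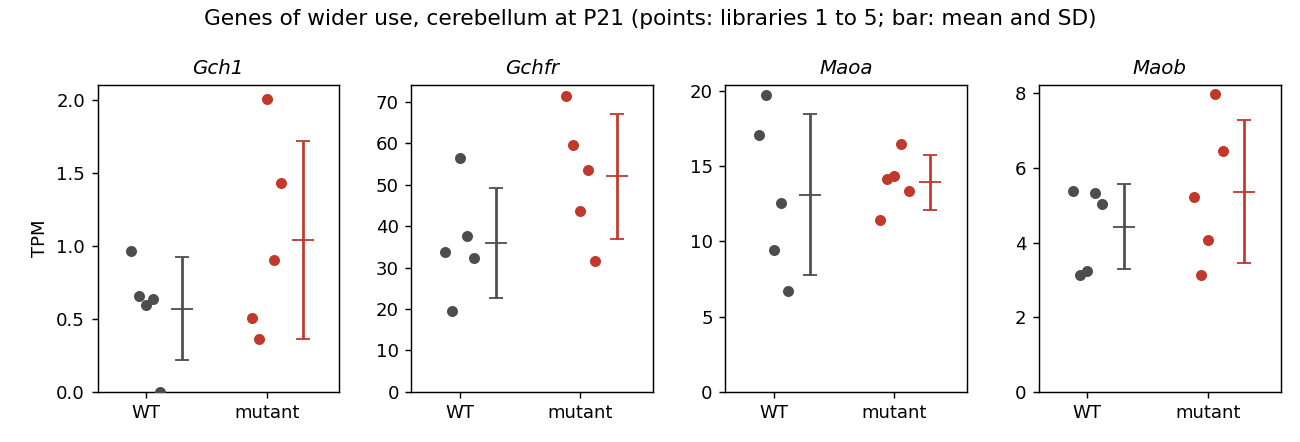
TPM of *Gch1*, *Gchfr*, *Maoa* and *Maob* (y axis, from 0, a separate scale for each gene) in the WT and mutant libraries. Points are libraries 1 to 5 and bars are the mean with the SD (n = 5). All 4 genes overlap between the genotypes, and the WT points of *Maoa* spread from 6.73 to 19.8 TPM against 11.4 to 16.5 TPM in the mutant.

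The cofactor enzyme *Gch1* (ENSMUSG00000037580, chr14:47153895-47189413, minus strand) measured 0.965, 0.656, 0.595, 0.636 and 0 TPM in WT replicates 1 to 5 and 0.505, 0.363, 2.0, 0.905 and 1.43 TPM in mutant replicates 1 to 5. Mutant replicates 3 and 5 were above all WT libraries and mutant replicates 1 and 2 were below 4 of them. The *Gch1* means were 0.570 ± 0.351 and 1.04 ± 0.679 TPM (SD, n = 5 each), with a log2 fold change of 0.89 (95% interval -0.69 to 2.47, limma, adjusted p = 0.787) and an exact permutation p of 0.222. Without WT replicate 5, in which it was listed at 0, the log2 fold change was 0.29, and without mutant replicate 3 the difference of means fell from 0.471 to 0.230 TPM. Its regulator *Gchfr* (ENSMUSG00000046814, chr2:119167773-119172390, plus strand) was far more abundant, at 33.9, 19.4, 56.3, 37.6 and 32.4 TPM in the WT and 71.5, 59.5, 43.7, 53.6 and 31.7 TPM in the mutant. The *Gchfr* means were 35.9 ± 13.3 and 52.0 ± 15.2 TPM (SD, n = 5 each), with a log2 fold change of 0.56 (95% interval -0.04 to 1.16, limma, adjusted p = 0.779) and an exact permutation p of 0.119. Mutant replicate 5 was the lowest mutant library and WT replicate 3 the highest WT one. Without mutant replicate 5 the difference of the *Gchfr* means was 21.2 TPM (exact permutation p = 0.0476). Without mutant replicate 1 it was 11.2 TPM (exact permutation p = 0.238). The exact permutation p was under 0.05 in 1 of 13 alternatives.

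*Maoa* (ENSMUSG00000025037, chrX:16619698-16687818, plus strand) and *Maob* (ENSMUSG00000040147, chrX:16709282-16817366, minus strand) lie tail to tail, 21463 bp apart. *Maoa*, whose enzyme prefers serotonin and noradrenaline, measured 17.1, 19.8, 9.46, 12.6 and 6.73 TPM in the WT and 11.4, 14.1, 14.3, 16.5 and 13.3 TPM in the mutant. Its lowest values were those of WT replicates 5 and 3, the libraries with the least mitochondrial mRNA. The *Maoa* means were 13.1 ± 5.35 and 13.9 ± 1.83 TPM (SD, n = 5 each), with a log2 fold change of 0.18 (95% interval -0.42 to 0.78, limma, adjusted p = 0.879) and an exact permutation p of 0.738. Without WT replicates 3 and 5 the difference of means changed from 0.831 to -2.52 TPM. *Maob* measured 5.38, 3.14, 3.25, 5.34 and 5.03 TPM in the WT and 5.21, 3.13, 4.07, 7.98 and 6.45 TPM in the mutant. The *Maob* means were 4.43 ± 1.13 and 5.37 ± 1.92 TPM (SD, n = 5 each). Its log2 fold change was 0.24 (95% interval -0.43 to 0.91, limma, adjusted p = 0.860) and its exact permutation p was 0.397. Without mutant replicate 4, the highest library, the log2 fold change was 0.08. *Maoa* exceeded *Maob* in all 10 libraries.

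**Figure D4:**
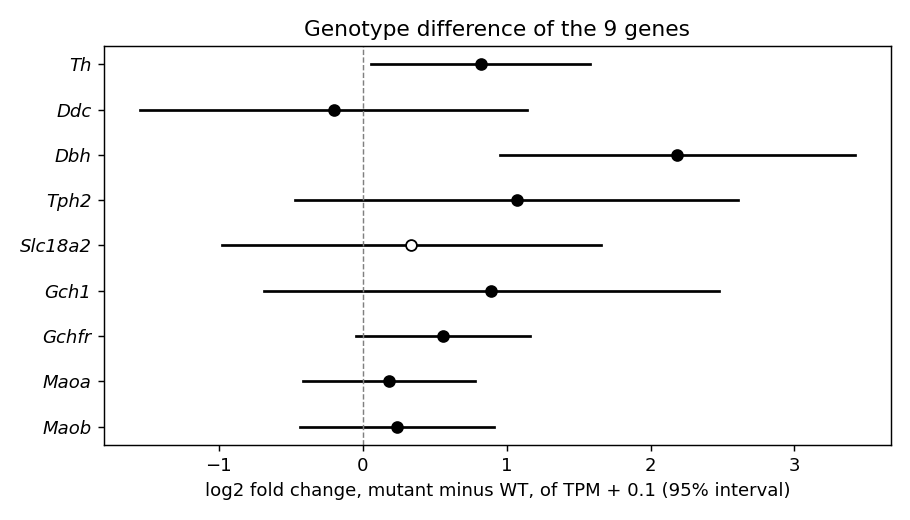
Log2 fold change, mutant over WT, of TPM + 0.1 for the 9 genes (x axis), with the 95% interval from limma as a line. The open point is *Slc18a2*, from the fit without the filter on low values. The intervals of *Th* and *Dbh* lie above 0 before adjustment over all genes, and those of the other 7 genes include 0. *Dbh* passed the filter on low values only through the mutant group.

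By mean TPM over the 10 libraries, the order was *Gchfr* (43.9), *Maoa* (13.5), *Maob* (4.90), *Th* (2.96), *Ddc* (1.67), *Gch1* (0.806), *Dbh* (0.650), *Tph2* (0.578) and *Slc18a2* (0.221). The order of the first 5 was the same in both genotypes. Over all libraries, neighbours kept this order in 9 of 10 libraries for *Gchfr* over *Maoa* and in 8 of 10 for both *Maob* over *Th* and *Th* over *Ddc*. Below *Ddc* the order depended on genotype. In the WT it was *Gch1* (mean 0.570 TPM), *Tph2* (0.387), *Dbh* (0.194) and *Slc18a2* (0.178), and in the mutant it was *Dbh* (1.11), *Gch1* (1.04), *Tph2* (0.769) and *Slc18a2* (0.264). *Gch1* exceeded *Dbh* in 4 of 5 WT and 1 of 5 mutant libraries. The division at 2 TPM placed *Th* with the abundant genes, although by role it belongs with the monoaminergic neuron genes, and *Gch1* with the low ones. The log2 fold change was above 0 for 7 of the 8 genes tested and for 56% of all genes tested, and its median was 0.69 for the 8 and 0.05 for all genes. These figures include *Dbh*, which passed the filter only through the mutant group, and are a description.

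Across the 10 libraries, the genes most alike to *Dbh* on the log2 scale were *Ankib1* (Pearson r = 0.959), *Clasp1* (r = 0.959) and *Spp1* (r = 0.923), out of 12810 protein-coding candidates. For *Th* they were *Rrp8* (r = 0.929), *Cfap97d2* (r = 0.869) and *Cabcoco1* (r = 0.862). For *Maoa* they were *Pclo* (r = 0.980), *Fam76b* (r = 0.977) and *Esyt2* (r = 0.968). These values are descriptions over 10 libraries that the genes share, with no test.

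The wider machinery of monoamine handling was read from other genes in the same libraries. In 7 lists of cofactor enzymes, other synthesis and breakdown enzymes, transporters and receptors, 36 of 63 genes were tested. The log2 fold change was positive for 22 of them and negative for 14, and its median was 0.10, while 56% of all genes tested were positive. In limma 0 passed the threshold, 0 were higher at an unadjusted p under 0.05, and 1 was lower, the aldehyde dehydrogenase *Aldh2*, beside 2.29% higher and 3.26% lower among all genes. *Aldh2*, which oxidises the aldehydes that monoamine oxidases leave, measured 73.6, 42.0, 52.5, 72.4 and 66.2 TPM in the WT and 42.8 to 45.7 TPM in the mutant (log2 fold change -0.44, limma, unadjusted p = 0.0130, adjusted p = 0.779). WT replicate 2 was below every mutant library and the other 4 WT libraries were above all of them. The cofactor enzymes were 5 above and 1 below 0 out of 6 tested (median 0.17, but -0.036 without WT replicate 5), with *Qdpr*, which recycles the cofactor, the most abundant at 114 and 118 TPM. Among 11 breakdown enzymes, 6 were above and 5 below 0. *Hnmt*, which methylates histamine, averaged 6.36 ± 4.14 TPM in the WT and 10.8 ± 4.61 TPM in the mutant (SD, n = 5 each, limma, adjusted p = 0.779). Of 8 transporters 2 were tested, among them *Slc29a4*, the plasma membrane monoamine transporter, at 42.7 and 39.8 TPM. Of 9 adrenergic receptors 7 were tested, 5 above and 2 below 0. Of 14 serotonin receptors 4 were tested, and of 10 dopamine, histamine and trace amine receptors 4, led by the histamine receptor *Hrh3* at 20.1 and 17.8 TPM.

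**Figure D5:**
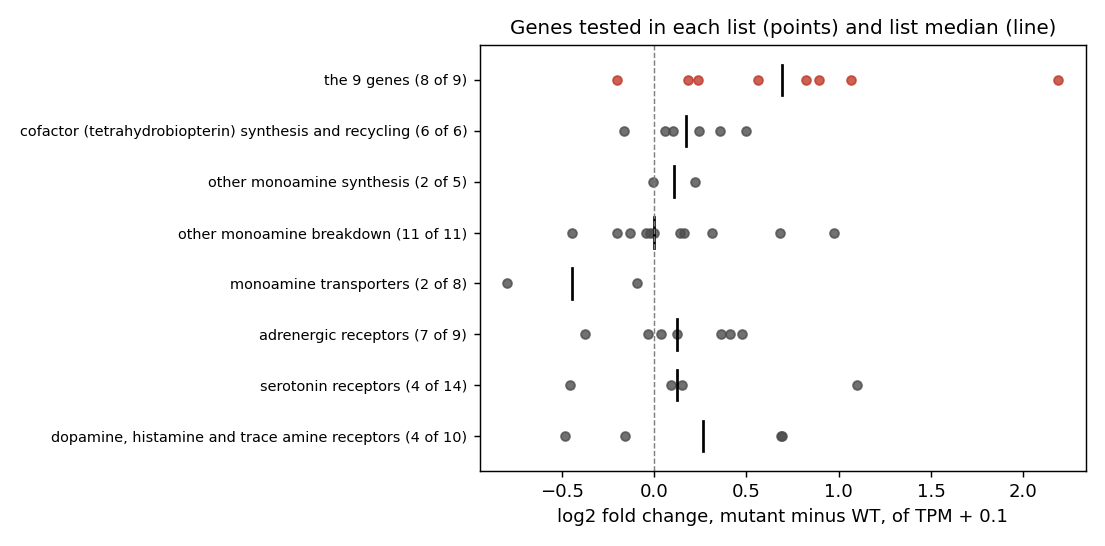
Log2 fold change, mutant over WT, of TPM + 0.1 (x axis) for the genes tested in each list, with the list's median as a vertical line and the numbers of genes tested and listed in brackets. The 9 genes are in the top line with *Dbh* at 2.19, and the 36 genes of the 7 other lists run from -0.79 to 1.10.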

How the data were processed

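The authors sequenced cerebellar RNA from 5 WT and 5 *Dscam* del17/del17 mice of both sexes, 1 library per mouse, made with a directional kit and run on an Illumina NovaSeq. Their tools were Trimmomatic 0.36 for trimming, HISAT2 2.2.0 for alignment to GRCm38 and StringTie 1.3.6, which gave the deposited TPM for each gene. The annotation release and the strand setting are not given in the sources used here. The read counts of the methods were not used here. TPM keeps no depth, so no counting error is given, and a gene listed at 0 may be undetected or not estimated.

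Genes with at least 0.5 TPM in at least 5 of the 10 libraries entered a limma 3.58.1 fit (R 4.3.3) on log2(TPM + 0.1), with a variance trend and no covariate, and adjusted over 17168 genes with the Benjamini-Hochberg method (threshold 0.05). The log2 fold change of low genes depends on the added value. For *Tph2*, listed at 0 in WT replicate 5, it was 0.36 with 1 TPM added and 1.79 with 0.01 TPM added. For single genes, mean TPM was also tested by exact permutation (two-sided, 252 divisions, scipy 1.17.1). The limma step was run on simulated data to check the script only. Positions are from GENCODE M21. Named genes are the 9 members, *Dscam*, per list up to 3 genes with the smallest p and 2 with the highest mean and any past the threshold, and per member the 3 most alike. Other list markers were named after their values were seen, and some list genes are not reported here. The members and lists were chosen with earlier results of these data known. Alternatives were other added values, filters, scalings and covariates, a replicate block, array weights and leaving out libraries.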

Additional observations from a re-analysis of the deposited data

How the results depend on the processing

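The log2 fold change of *Dbh* was above 0 in all 22 alternatives of the limma fit that gave it a value (0.81 to 3.13). Its unadjusted limma p was under 0.05 in each. Fits without some libraries kept the genes that passed the filter over all 10 libraries. *Dbh* passed that filter only through the mutant group, so this count is a description and no measure of stability. Its groups do not overlap, so leaving out libraries fixes its exact permutation p at the smallest value possible, and that p says nothing of stability. For *Th* the unadjusted limma p was under 0.05 in 12 of 23 alternatives (log2 fold change 0.60 to 1.02). With mitochondrial mRNA as covariate the log2 fold change was 0.18 for *Tph2* and 0.07 for *Gch1*, and the median of the cofactor list was -0.17. The number of genes past the threshold was 0 in every alternative except without mutant replicate 4, where it was 1 (*1500004A13Rik*), so that leaving out 1 library gave 0 to 1. Genes at an unadjusted p under 0.05 numbered 204 to 1028 higher and 358 to 864 lower. For *Th*, the difference of means was 1.21 TPM without WT replicates 3 and 5 (exact permutation p = 0.143), 1.68 TPM without both libraries with *Xist* (p = 0.0857, chosen after seeing the data) and 1.22 to 1.86 TPM without 1 library. For *Ddc* it was 0.192 TPM without both *Xist* libraries and -0.944 to 0.0537 TPM without 1 library, and its log2 fold change was 0.34 and -0.48 to 0.20. For *Maoa* it was -2.52 TPM without WT replicates 3 and 5 and -0.767 to 2.49 TPM without 1 library, and its log2 fold change was -0.25 with mitochondrial mRNA as covariate, -0.22 without WT replicates 3 and 5 and -0.031 to 0.35 without 1 library. The median log2 fold change of all genes moved from 0.05 to -0.10 with that covariate and to -0.09 without those libraries. For *Gchfr* the difference of means was 11.2 to 21.2 TPM without 1 library. The cause of these changes was not tested.

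With the replicate block, 0 genes passed the threshold (586 higher and 508 lower at an unadjusted p under 0.05), and the log2 fold changes of *Th* and *Dbh* were 0.82 and 2.19, with unadjusted p = 0.0735 for *Th*. Same-numbered libraries correlated at 0.00789 to 0.0978 after removing the genotype means, and only WT replicate 5 correlated best with its own number. The labels do not say what the number stands for. The filter at 1 TPM left no value for *Tph2*, *Dbh* and *Gch1*, and *Slc18a2* has one only without the filter. TPM carries no depth, so the precision of values near 0 is unknown.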
